A study of Mus musculus with 9 samples.

Results

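The miR-29 family was followed in B16F1 cells, an adherent mouse melanoma line from C57BL/6J skin (strain C57BL/6 in the sample labels), by small RNA sequencing. Its members are miR-29a, miR-29b and miR-29c, and they were chosen by hairpin name. In the deposited table, 59 of 6414 entries carried a miR-29 name, and 52 of these held counts. Together they took 30813 of 2381030 counts. Of the 59 entries, 48 were sequence tags of the annotated hairpins, 7 were mature names with no counts, and 4 belonged to a predicted hairpin that the authors' software matched to miR-29c. All counts were summed by member and arm, with a listed start under 35 taken as the 5p arm. The hairpin mmu-mir-29a gave 31 tags on its 3p arm and 3 on its 5p arm, mmu-mir-29b gave 6 and 1, and mmu-mir-29c gave 8 and 2.

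The 3 groups had 3 libraries each. Control cells were unexposed, L-Tyr cells received 5.0 mM of the amino acid L-tyrosine, and BrdU cells received 2.5 µg/mL of the thymidine analogue bromodeoxyuridine, in each case over 72 h and without a medium change. All 9 libraries came from the same line, without any genetic change, and the series' design text calls the replicates independent. The comparisons address which miRNAs shift when pigmentation and proliferation of these cells are altered. In bulk RNA of this kind, fewer cells of a type and less RNA per cell cannot be told apart.

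MicroRNAs of the miR-29 family are short RNAs that guide Argonaute proteins to mRNAs, mainly through the seed at bases 2 to 8. They are best known for repressing genes of the extracellular matrix such as collagens, and the DNA methyltransferases Dnmt3a and Dnmt3b. They are also known to repress the survival gene Mcl1 and the cell cycle gene Cdk6. In many tumours, melanoma included, the family is described as growth restraining, and Myc is known to repress both of its clusters.

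The mature 3p sequences are printed to show the seed that the members share and the bases that tell them apart. They are from RefSeq (GRCm38.p6), with the seed in capitals.

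miR-29a-3p: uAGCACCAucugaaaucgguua

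miR-29b-3p: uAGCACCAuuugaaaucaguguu

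miR-29c-3p: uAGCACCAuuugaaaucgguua

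The seed AGCACCA was held by these 3 names alone among 1679 mature mouse names. Counted from 1 at the 5′ end, miR-29a-3p and miR-29c-3p differed by the single substitution C10U. From miR-29c-3p to miR-29b-3p the substitutions were G18A, U21G and A22U, and miR-29b-3p is 23 bases long against 22. A tag that ends before base 18 therefore cannot separate miR-29b from miR-29c. Such tags held 17 counts listed under miR-29b-3p, 13 of them in L-Tyr replicate 2, and 8 counts listed under miR-29c-3p in BrdU replicate 3. No tag of the family matched the hairpin of another miRNA.

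Each member sits in a cluster of 2 hairpins. On NCBIM37, the assembly also named mm9, Mir29a lies on the minus strand at chr6:31012660-31012747 and Mir29b-1 at chr6:31013023-31013093, 275 bases apart. Both are annotated there as miRNA genes only. Mir29b-2 at chr1:196863234-196863314 and Mir29c at chr1:196863741-196863828 lie on the plus strand, 426 bases apart, within an exon of the lincRNA A330023F24Rik. The 2 hairpins of miR-29b give the same 3p sequence, and the table split its counts between them, 87 under Mir29b-1 and 111 under Mir29b-2. The authors' split does not say which locus was transcribed.

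The libraries held between 144452 and 424122 counts. A count of 0 allows up to 3 counts, which corresponds to 6.89 to 20.1 CPM. CPM are counts per 1000000 counts, scaled between libraries by the trimmed mean of M values (TMM). This floor and the Wilson intervals of shares given below cover counting error only, and reads carried no molecular identifiers. The intervals of fitted fold changes come from the SE of the fits, which includes the spread between libraries. The pigment cell miRNA miR-211 was present in every library. It had 10243 to 15738 CPM in control cells, 22509 to 26781 CPM in L-Tyr cells and 7507 to 7940 CPM in BrdU cells. The other pigment cell miRNA examined, miR-204, was scarce, with no counts in BrdU replicate 1 and at most 80.4 CPM, in L-Tyr replicate 1. BrdU replicate 3 stood apart. Its summed level of 11 markers of erythroid, leukocyte, stromal, endothelial and hepatic cells was 298124 CPM, against 4061 and 5341 CPM in the other BrdU libraries, 1705 to 3089 CPM in control and 2488 to 7624 CPM in L-Tyr libraries, and 8 of the 11 exceeded every other library more than 3 times. In it miR-143 reached 269707 CPM, erythroid miR-451a 5335 CPM and leukocyte miR-142a 1117 CPM, and 1 marker, miR-150, was at 0. In L-Tyr replicate 2 the leukocyte miRNA miR-150 and the hepatic miRNA miR-122 stood at 65.9 and 73.2 CPM. Elsewhere miR-150 was at 0, and miR-122 had counts only in BrdU replicate 3. The results below are therefore given with and without these libraries where they matter.

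The family in these cells was almost wholly miR-29a-3p, which took 98.2% of its counts and was found in all 9 libraries. In control cells its level was 13446, 15723 and 11340.3 CPM. In L-Tyr cells it was 7795, 13997 and 10469.7 CPM, and in BrdU cells 8860.3, 15790.5 and 10868 CPM. In both exposures replicates 1 and 3 lay below the lowest control library. Replicate 2 lay among the controls with L-Tyr and just above the highest control with BrdU, so the groups overlapped. As a share of all counts it was between 0.781% (95% Wilson interval 0.754 to 0.809, BrdU replicate 3) and 1.68% (1.64 to 1.72, BrdU replicate 2). By this measure it ranked between 17 and 34 among the miRNA arms of a library.

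The other arms were scarce. miR-29c-3p took 0.724% of the family's counts and miR-29b-3p 0.643%, with 8 and 7 libraries holding any. The passenger arms had fewer still: 80 counts for miR-29a-5p in 4 libraries, 27 for miR-29c-5p in 3 and 14 for miR-29b-5p in control replicate 1 only. A further 14 counts stood under the predicted hairpin without an arm, in control replicate 2. At this depth a passenger arm with no counts was not detectable, which does not show it to be absent. In every group the order of mean levels began with miR-29a-3p, whose lowest library, at 7795 CPM, lay far above the highest library of any other arm, at 431 CPM. Next came miR-29b-3p (38.6 CPM) and miR-29b-5p (22.1 CPM) in control cells, miR-29a-5p (95.7 CPM) and miR-29c-3p (95.4 CPM) in L-Tyr cells, and miR-29c-3p (197 CPM) and miR-29b-3p (156 CPM) in BrdU cells. Each of these pairs overlapped between libraries.

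**Figure D1:**
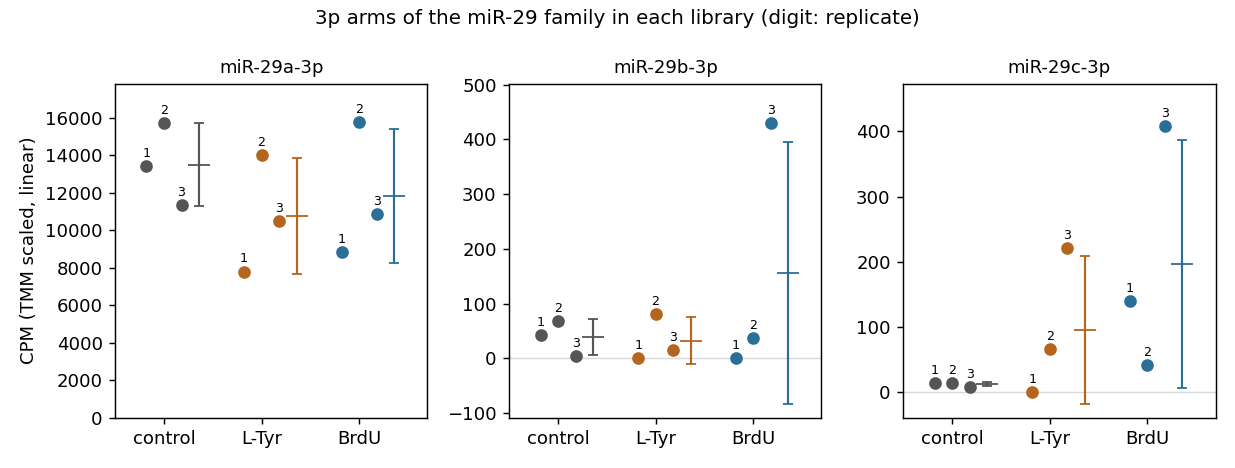
Levels of the 3p arms of miR-29a, miR-29b and miR-29c in CPM on linear axes, with a point for each library numbered by replicate, and the mean and SD of 3 libraries beside each group. miR-29a-3p overlaps between all groups at 7795 to 15790.5 CPM, while miR-29b-3p and miR-29c-3p peak in BrdU replicate 3 at 431 and 409 CPM.

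L-Tyr exposure gave no difference of the miR-29 family past the test when tags were summed by member and arm. The study itself, with DESeq2, listed miR-29a-3p as lower with L-Tyr and miR-29c-3p as higher with BrdU. Those calls need not rest on sums by member and arm as used here. DESeq2 on single tags gave calls in the same directions, which are given below with their limits. The control mean of miR-29a-3p was 13503 ± 2192 CPM (SD, n = 3), and the L-Tyr mean was 10754 ± 3111 CPM (SD, n = 3). The fitted log2 fold change was −0.32 (SE 0.24, 95% interval −0.86 to 0.22, adjusted p = 0.655, edgeR quasi-likelihood test). This difference was within the spread between libraries. Without L-Tyr replicate 2 it was −0.71, with an edgeR adjusted p = 0.134. miR-29a-3p was the only member and arm that passed the filter on low counts in this comparison. By edgeR 0 of the family were called, where 2.25% of all 222 sums were. By an unadjusted p under 0.05 it was also 0, against 12.2% of all sums, and by DESeq2 0, against 3.23%.

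The scarce members also showed no separation by L-Tyr. miR-29c-3p had 14.2, 13.8 and 8.40 CPM in control cells and 0, 65.9 and 220.4 CPM in L-Tyr cells. Replicates 2 and 3 of L-Tyr lay above all controls, and the count of 0 in replicate 1 allows up to 20.1 CPM, which does not place it below or above them (exact permutation p = 0.4, two-sided). Of the 42 counts in L-Tyr replicate 3, most were a single sequence, bases 2 to 21. It was listed with 22 counts under miR-29c and with 16 under the predicted hairpin. The tag of bases 1 to 20 had 0, 0 and 3 counts in L-Tyr cells. miR-29b-3p had 42.6, 68.9 and 4.20 CPM in control cells and 0, 80.5 and 15.7 CPM in L-Tyr cells, which overlapped as well. The passenger arm miR-29a-5p had 0, 14 and 0 counts in control cells and 0, 34 and 31 in L-Tyr cells. Per 1000 counts of miR-29a-3p this was 0, 2.04 and 0 in control cells against 0, 8.89 and 15.5 in L-Tyr cells. The groups overlapped at 0, and the exact permutation p was 0.2, where 3 against 3 libraries cannot go below 0.1.

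BrdU exposure likewise left the abundant member within its spread, while miR-29c-3p was higher in each BrdU library than in any control library without passing the test. With at most 6 counts in a control library, miR-29c-3p passed the low-count filter through the BrdU libraries, where it was high, so its values are given as a description and not as support for a difference. miR-29a-3p averaged 11839 ± 3566 CPM (SD, n = 3) in BrdU cells. Its log2 fold change against control was −0.33 (SE 0.26, 95% interval −0.94 to 0.28, edgeR adjusted p = 0.595), and −0.23 without BrdU replicate 3.

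miR-29c-3p had 3, 6 and 2 counts in the control libraries and 23, 17 and 112 in the BrdU libraries. This was 139, 41.7 and 409 CPM in BrdU cells, with a mean of 197 ± 190.1 CPM (SD, n = 3), while the control mean was 12.1 ± 3.23 CPM (SD, n = 3). The lowest BrdU library stood above the highest control library. The log2 fold change was 3.92 (SE 1.27, 95% interval 1.00 to 6.84), with an unadjusted p of 0.0149 and an adjusted p of 0.145 by edgeR, and 0.0977 by DESeq2. Of all 243 sums tested, 17.3% were higher without overlap in this comparison, and 19.3% had an unadjusted p under 0.05. Without BrdU replicate 3 the log2 fold change of miR-29c-3p was 2.79, with an edgeR adjusted p = 0.56. The part of the other cell types' markers in the miR-29c-3p level of that library was not tested. Per 1000 counts of miR-29a-3p, a ratio that does not depend on the scaling between libraries, miR-29c-3p was 1.06, 0.876 and 0.741 in control cells and 15.7, 2.64 and 37.6 in BrdU cells. These did not overlap either (exact permutation p = 0.1, the smallest possible, and 0.75 after Benjamini-Hochberg adjustment over 15 ratio tests).

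miR-29c-5p, the passenger arm of the same hairpin, had 0, 3 and 0 counts in control cells and 0, 13 and 11 in BrdU cells, which overlapped at 0. It had no counts in the L-Tyr libraries. miR-29b-3p had 0, 36.8 and 431 CPM in BrdU cells. BrdU replicate 3 lay above all controls and replicate 2 among them, and the count of 0 in replicate 1 allows up to 18.2 CPM. Its log2 fold change was 1.99 (SE 1.80, edgeR adjusted p = 0.654). It was −1.12 without BrdU replicate 3, which held 118 of the 133 counts of miR-29b-3p in BrdU cells, so its direction rested on that library. Its 2 hairpin entries both peaked there, with 51 and 67 counts. Of the 7 sums, 3 passed the filter in this comparison and 0 were called by edgeR or by DESeq2, where edgeR called 2.06% of all sums and DESeq2 3.92%. An unadjusted p under 0.05 was found for miR-29c-3p alone.

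**Figure D2:**
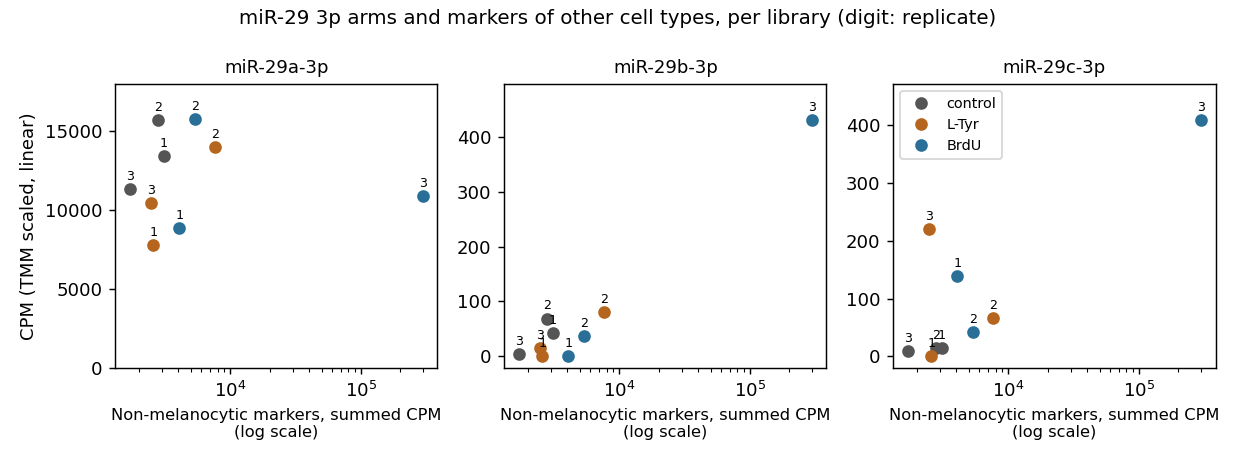
Level of each miR-29 3p arm (CPM, linear) against the summed level of 11 miRNAs that mark non-melanocytic cells (CPM, log scale), with a point for each library numbered by replicate. BrdU replicate 3 lies alone at 298124 CPM of markers and is the highest library for miR-29b-3p and miR-29c-3p, but lies among the others for miR-29a-3p at 10868 CPM.

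Between the 2 exposures the family did not differ past the test. The log2 fold change of miR-29a-3p in BrdU against L-Tyr cells was 0.019 (SE 0.30, 95% interval −0.67 to 0.71, edgeR adjusted p = 0.984). For miR-29c-3p it was 0.93 (SE 1.59, edgeR adjusted p = 0.958), and −0.12 without BrdU replicate 3. No other sum of the family passed the filter, and 0 were called by edgeR, where 2.83% of all 212 sums were. By an unadjusted p under 0.05 and by DESeq2 it was also 0, against 12.7% and 6.27% of all sums. The passenger arm miR-29a-5p gave 0.155 per 1000 counts of miR-29a-3p in BrdU replicate 2 and 0 in the other BrdU libraries. On the log2 scale with 0.5 counts added, that ratio was lower in BrdU than in L-Tyr cells without overlap, by −4.05 (exact permutation p = 0.1, the smallest possible, and 0.75 adjusted over the 15 ratio tests). L-Tyr replicate 1 had no counts of this arm, so its place in that order came from the added 0.5 counts.

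Within miR-29a-3p, the counts were spread over 31 tags of 15 to 20 bases. The mature miRNA has 22 bases and the longest tag in the table has 20, so it was never listed whole. The study's methods name reads of 17 to 35 nucleotides, and it was not settled whether longer reads were shortened to 20 bases when listed, so the last base of a tag of 20 bases need not be the end of the RNA. Tags of 20 bases held 67.5% of the miR-29a-3p counts and 54.3% of all tag counts. The 4 most abundant tags are shown as listed, in DNA letters and with the bases of the seed in capitals.

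Bases 1 to 20: tAGCACCAtctgaaatcggt

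Bases 2 to 21: AGCACCAtctgaaatcggtt

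Bases 3 to 22: GCACCAtctgaaatcggtta

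Bases 3 to 21: GCACCAtctgaaatcggtt

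Only the tags that start at base 1 keep the annotated 5′ end. Tags starting at base 3 lack the opening base of the seed. By start position, base 3 held 31.8% of the miR-29a-3p counts, base 1 held 29.4% and base 2 held 21.4%, over all libraries. A tag's start is read here as listed, and the part of read trimming in it was not tested.

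The tag of bases 3 to 22, at chr6:31012673-31012692 on NCBIM37, was lower in both exposures than in control cells in every library, though not past the test by edgeR. Control libraries held 3714, 4080.0 and 3255 CPM of it. L-Tyr libraries held 2156, 1914 and 1805 CPM, and BrdU libraries 1943, 2949 and 1452 CPM. Neither exposed group overlapped the controls. For L-Tyr the log2 fold change was −0.99 (SE 0.23), with an unadjusted p of 0.00152 and an adjusted p of 0.165 by edgeR over 1256 tags. The DESeq2 test called it, at −0.95 with an adjusted p = 0.0165. Leaving out each library in turn kept the log2 fold change between −1.10 and −0.96. For BrdU it was −0.89 (SE 0.32, adjusted p = 0.317 by edgeR and 0.4 by DESeq2) and −0.73 without BrdU replicate 3, and BrdU against L-Tyr gave 0.066. Both comparisons use the same 3 control libraries.

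The other abundant tags gave smaller fitted differences, most of them with wider errors. For bases 1 to 20, 2 to 21 and 3 to 21 the SE with L-Tyr was 0.46, 0.41 and 0.32, beside 0.23 for bases 3 to 22. With BrdU it was 0.31, 0.38 and 0.41, beside 0.32. The difference between tags was not tested. The tag of bases 1 to 20 held 2436, 3435 and 2889.7 CPM in control cells, 1172, 4938 and 1999 CPM in L-Tyr cells and 2409, 3929 and 3372 CPM in BrdU cells. The L-Tyr libraries spanned the whole control range, and the log2 fold change was −0.16 for L-Tyr and 0.066 for BrdU, with edgeR adjusted p-values of 0.94 and 0.96. The tag of bases 2 to 21 gave −0.19 and −0.46, and that of bases 3 to 21, which lacks only the last base of the tag that was lower, gave −0.062 and −0.26. None of these passed the edgeR test. They moved with single libraries, since the tag of bases 1 to 20 was −1.03 for L-Tyr without L-Tyr replicate 2, and that of bases 2 to 21 was −0.95 for BrdU without BrdU replicate 2.

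As a share of miR-29a-3p, the tag of bases 3 to 22 was 27.6%, 25.9% and 28.7% in the control libraries. It was 27.7%, 13.7% and 17.2% in the L-Tyr libraries and 21.9%, 18.7% and 13.4% in the BrdU libraries. The 95% Wilson intervals of these shares lay between 12.2% and 30.4%. All BrdU libraries lay below all control libraries (exact permutation p = 0.1, the smallest possible, and 0.686 adjusted over 12 tests of tag shares). This tag was picked for its lower level in these same counts, so its share is a description and not separate support. Without BrdU replicate 3 the BrdU mean share differed from the control mean by −7.12 percentage points, against −9.44 with it. L-Tyr replicate 1 lay among the controls (exact permutation p = 0.3), and the L-Tyr difference was −4.97 points without L-Tyr replicate 2 and −7.90 with it, and −12.0 points without L-Tyr replicate 1. The tag of bases 3 to 21 averaged 9.10% in control, 11.7% in L-Tyr and 8.95% in BrdU libraries, with overlap between groups. The tag of bases 3 to 22 held 6448 of the 9620 counts starting at base 3, so the share of that start largely repeats it. The share of all tags starting at base 3 followed the order of the tag of bases 3 to 22, with means of 37.3 ± 2.95% in control, 32.8 ± 9.10% in L-Tyr and 27.9 ± 6.25% in BrdU cells (SD, n = 3). It was lower without overlap for BrdU (exact permutation p = 0.1 and 0.9 adjusted over 15 tests). That difference was −9.34 percentage points, and −5.76 without BrdU replicate 3. For L-Tyr it was −4.45 points, −0.58 without L-Tyr replicate 2 and −9.46 without L-Tyr replicate 1.

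**Figure D3:**
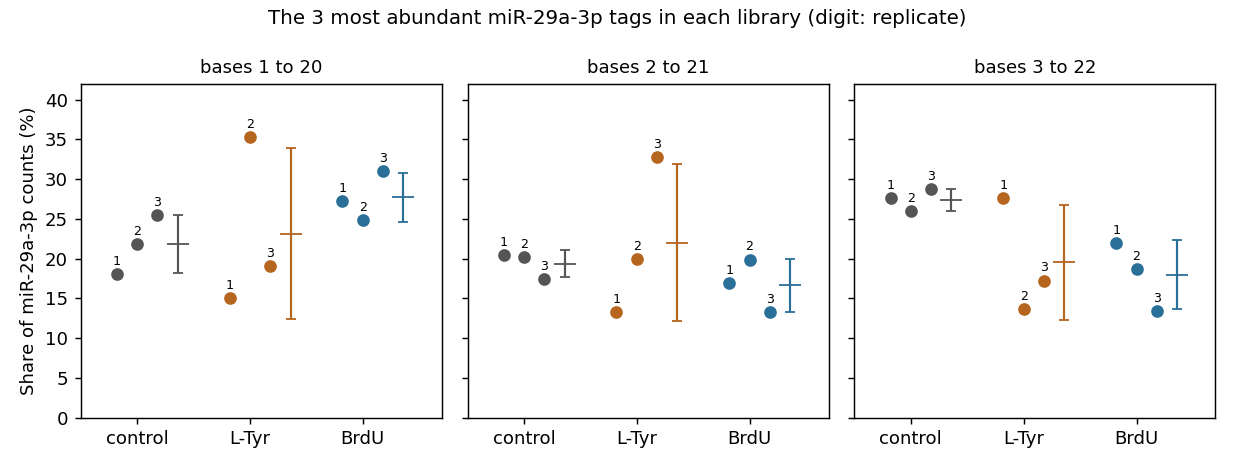
Share of miR-29a-3p counts (percent) taken by its 3 most abundant tags in each library, numbered by replicate, with the mean and SD of 3 libraries beside each group. The tag of bases 3 to 22 lies at 25.9 to 28.7% in control libraries and at 13.4 to 21.9% in BrdU libraries, while L-Tyr replicate 1 lies among the controls at 27.7%.

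The tags of miR-29a-3p overlap in sequence and come from the same libraries, so a direction they share is not separate evidence from each. Over all tags of miR-29a-3p that passed the filter, 14 of 15 had a negative log2 fold change for L-Tyr, with a median of −0.42 beside −0.13 over all 1256 tags. For BrdU 9 of 16 were negative, with a median of −0.055 beside −0.0055 over all 1488 tags. Lower levels without overlap were found for 3 of the 15 tags with L-Tyr, where 8.68% of all tags were so, and for 2 of the 16 with BrdU, where 8.33% were. An unadjusted p under 0.05 was reached by 2 of the 15 tags with L-Tyr (9.63% of all tags) and 1 of the 16 with BrdU (10.5% of all tags). The edgeR test called 0 of either set, where it called 0.0796% of all tags for L-Tyr and 0% for BrdU.

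The further tags that DESeq2 called were scarce. The miR-29a-3p tag of bases 1 to 18 had 17, 54 and 22 counts in control cells and none in the 3 L-Tyr libraries, which makes it at least 6.34-fold lower against a floor of 3 counts per L-Tyr library. Its DESeq2 adjusted p was 0.0371 and its edgeR adjusted p 0.275. This tag passed the edgeR filter only through the control libraries, where it was high, so that it differed follows in part from that choice, and it is among the tags counted above as lower without overlap and at an unadjusted p under 0.05. In BrdU cells it had 0, 24 and 17 counts. The miR-29c-3p tag of bases 1 to 20 had 1, 1 and 0 counts in control cells, 0, 0 and 3 in L-Tyr cells and 17, 10 and 104 in BrdU cells, with a DESeq2 adjusted p = 0.0206 for BrdU against control, and it did not pass the edgeR filter. Its counts came almost wholly from the BrdU libraries, where it was high, so this call is a description and not support for a difference. Most of them were in BrdU replicate 3, and the DESeq2 tag test was not run without that library. DESeq2 called 2.84% of tags for L-Tyr and 2.52% for BrdU. Between the exposures, 13 tags of miR-29a-3p were tested and 0 were called by edgeR (0.162% of all tags) or DESeq2 (2.09%), with 1 at an unadjusted p under 0.05 (7.13% of all tags). That was the tag of bases 5 to 21, with 134, 84.2 and 173 CPM in L-Tyr cells and 254, 787 and 544 CPM in BrdU cells (log2 fold change 1.99, SE 0.78, edgeR adjusted p = 0.525).

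**Figure D4:**
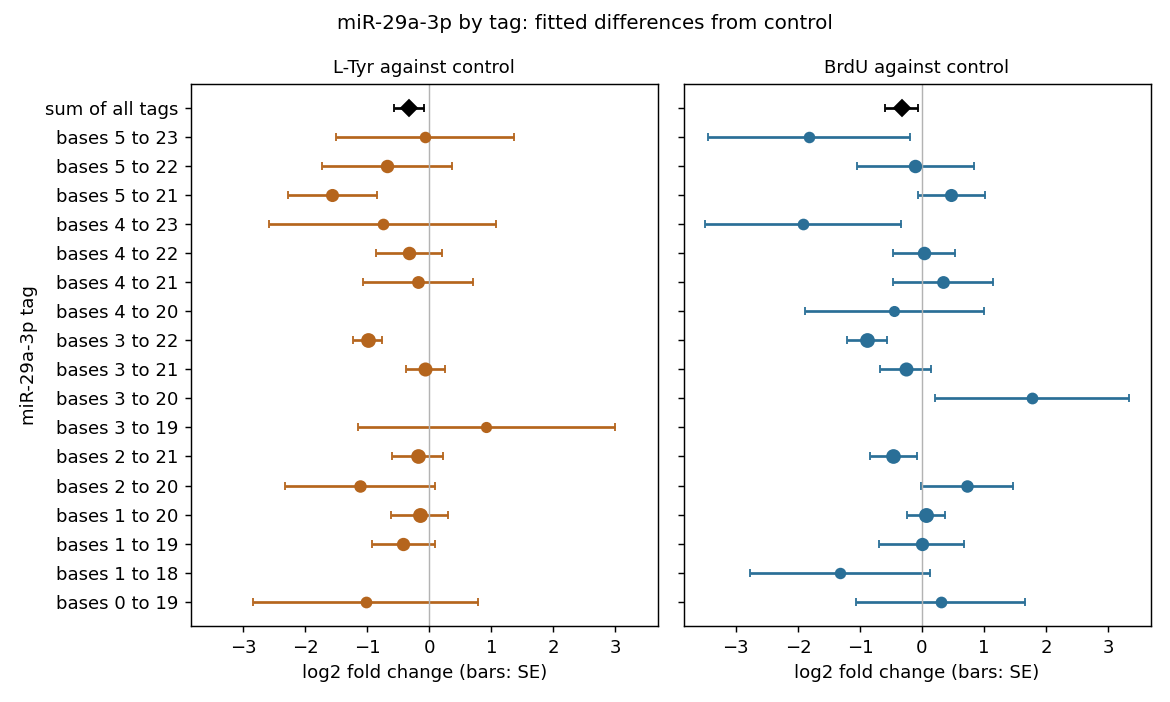
Fitted log2 fold change against control, with its SE, for each miR-29a-3p tag tested in L-Tyr and BrdU cells and for the sum of all tags (diamond), with larger points for more abundant tags. The tag of bases 3 to 22 lies at −0.99 and −0.89 while the sum lies at −0.32 and −0.33, and the tag of bases 1 to 18 is not drawn for L-Tyr because all 3 L-Tyr libraries are at 0.

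Myc is known to repress miR-29 together with a set of other miRNAs, among them let-7, miR-15, miR-16, miR-22, miR-26 and miR-30 members. Of 18 such arms outside the family, 15 were tested in each comparison. For L-Tyr 0 were called by edgeR, with 1 higher and 2 lower at an unadjusted p under 0.05 (7.66% and 4.5% of all sums), and their median log2 fold change was −0.26 beside −0.058 over all sums. The smallest p there belonged to let-7d-5p, at −0.93 (edgeR adjusted p = 0.0553). Next were miR-22-3p, which was higher, at 0.78, and let-7a-5p at −0.59 (edgeR adjusted p = 0.0902 and 0.129). For BrdU only miR-22-3p was called, higher by 1.29 (SE 0.21, edgeR adjusted p = 0.0201), where 2.06% of all sums were called. At an unadjusted p under 0.05 it was 1 higher (11.5% of all sums) and 2 lower (7.82% of all sums), the latter being let-7a-5p at −0.77 and let-7d-5p at −0.70 (edgeR adjusted p = 0.188 and 0.211). The median was 0.098 beside −0.086. Between the exposures 0 were called, with 2 higher at an unadjusted p under 0.05 (7.08% of all sums). The smallest p was that of miR-26a-5p, at 0.65 (edgeR adjusted p = 0.238).

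The miRNA arms whose log2 levels ran most like those of miR-29a-3p over the 9 libraries, among 256 arms compared, were miR-9-3p (Pearson's r = 0.943, Spearman's rho = 0.85), miR-188-5p (r = 0.853, rho = 0.845) and miR-542-5p (r = 0.84, rho = 0.812). These are descriptions over libraries that share their depth and scaling. In all 3 groups miR-29a-3p and miR-9-3p were highest in replicate 2. Replicate 2 was also the deepest library of each group, at 424122 counts in control, 238245 in L-Tyr and 384486 in BrdU cells. The part of depth in these patterns was not tested. On the log2 CPM scale, miR-9-3p ranged from 6.22 in L-Tyr replicate 1 to 9.13 in control replicate 2, and miR-29a-3p from 12.93 in L-Tyr replicate 1 to 13.95 in BrdU replicate 2. miR-188-5p and miR-542-5p had no counts in several of the 9 libraries.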

How the data were processed

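Total RNA of B16F1 cells was enriched for small RNAs, made into TruSeq small RNA libraries, size selected on a gel and sequenced as single reads by the authors. Per the study's methods, reads of 17 to 35 nucleotides were mapped with the BaseSpace Small RNA app 1.0 to mm9 and miRBase 21 at 100% identity. The listed tags ran from 13 to 20 bases. Of the 31 miR-29a-3p tags, 5 (187 counts) did not occur in their hairpin, nor did 1 miR-29c-3p tag (7 counts), and all were kept in the sums. FastQC, MultiQC, DESeq and DESeq2 are named in the submitters' processing notes. The deposited values used were raw counts per tag, with no normalization. The authors also deposited normalized counts and tables of their own comparisons (fold changes and p-values), which were not used.

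Counts were summed by hairpin name and arm over the whole table. Each comparison was fitted to its 6 libraries with edgeR 4.0.16 (quasi-likelihood F test, TMM, filterByExpr) in R 4.3.3, with Benjamini-Hochberg adjustment over all sums or tags tested and a threshold of 0.05. DESeq2 1.42.0 was an alternative. Fits were tested on simulated data. CPM values share a TMM scaling over the 9 libraries, so they can differ slightly from the fits. Ratios and shares were compared by exact two-sided permutation tests (scipy 1.17.1). Hairpins were placed on NCBIM37 by exact match, with GENCODE annotation. Every member and arm, its most abundant tag, tags called, the 3 nearest patterns and called members of the Myc list were named, and other tags were named after their values were seen. The members and lists were chosen with earlier results of these data known. Depth ran from 144452 to 424122 counts per library.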

Additional observations from a re-analysis of the deposited data

How the results depend on the processing

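Depth limits the scarce arms: outside miR-29a-3p each miR-29 arm had at most 223 counts in all 9 libraries, and a count of 0 allows 6.89 to 20.1 CPM. Under each alternative run (other scalings, filters, all 9 libraries in 1 fit, DESeq2, other choices of tags, predicted hairpins left out, each library left out) 0 sums of the family were called in any comparison. The alternatives on fits of single tags, on shares of the tag of bases 3 to 22 and on predicted hairpins were chosen after seeing the data.

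Leaving out each library in turn kept the log2 fold change of miR-29a-3p between −0.71 and −0.24 for L-Tyr and between −0.54 and −0.10 for BrdU against control, and moved it between −0.22 and 0.30 for BrdU against L-Tyr. The last was also −0.095 with library totals alone and −0.017 with the most abundant tag of the table left out, where leaving out L-Tyr replicate 1 gave −0.18. For BrdU against control, the most abundant tag in place of the sum gave 0.066. For BrdU against control miR-29b-3p ran between −1.12 and 2.67 and miR-29c-3p between 2.79 and 4.40, and for BrdU against L-Tyr miR-29c-3p ran between −0.12 and 2.49, each lowest without BrdU replicate 3. The cause was not tested. Library totals alone moved the median log2 fold change of all sums from −0.058 to 0.081 for L-Tyr and from 0.044 to −0.093 for BrdU against L-Tyr.

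Among the tags, the tag of bases 1 to 20 ran between −1.03 and 0.17 for L-Tyr (0.016 without L-Tyr replicate 3), between −0.11 and 0.25 for BrdU (−0.068 without control replicate 1 and −0.016 without BrdU replicate 3), and between −0.20 and 1.00 between the exposures. The tag of bases 2 to 21 ran between −0.53 and 0.15 for L-Tyr, between −0.95 and −0.28 for BrdU and between −0.80 and 0.023 between the exposures, and that of bases 3 to 22 between −0.25 and 0.33 there. DESeq2 gave the L-Tyr difference of the tag of bases 3 to 22 as −0.95 and that of bases 1 to 18 as −6.77, both called, the second against libraries at 0 and no bound. For miR-542-5p Spearman's rho was 0.812 and r with library totals alone 0.853, each at rank 4.

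Over all arms compared, replicate numbers gave no sign of pairing: 0 of 9 same-numbered pairs had a correlation of deviations over 0.1 (−0.11 to 0.025). Such a correlation over many arms cannot exclude pairing. In each group miR-29a-3p was highest in replicate 2, and the reason was not tested. With a replicate block the log2 fold change of miR-29a-3p was −0.34, −0.35 and 0.031 in the 3 comparisons, that of miR-29b-3p for BrdU against control was −0.46, and 0 sums of the family were called.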
